A study of Arabidopsis thaliana with 36 samples.

Results

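The 9 genes described here are the EDS1 family of Arabidopsis thaliana (EDS1, EDS1B, PAD4 and SAG101) and the helper NLR genes NRG1.1, NRG1.2, ADR1, ADR1-L1 and ADR1-L2. They were picked out by locus identifier from the 32678 genes of the count table, and all 9 were among the 21356 genes with enough counts to be tested. RNA was sequenced from whole seedlings aged 12 days, grown in liquid MS medium with sucrose, of 4 genotypes: the double mutant wrky18 wrky40, the single mutants wrky40 and wrky18, and WT (Col-0). Each genotype was taken after 1 h or 2 h in fresh medium with 1 µM flg22, or untreated at 0 h, with 3 biological replicates of each of the 12 groups. WRKY18 and WRKY40 encode similar transcription factors of the WRKY family. The peptide flg22 is a piece of flagellin, the protein of bacterial flagella, and is detected by the receptor kinase FLS2. The labels give the mutants by name only, with no allele. The 0 h seedlings had no change of medium, so where 1 h or 2 h is set against 0 h, flg22 cannot be told apart from the handling or from the hour of sampling.

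EDS1, PAD4 and SAG101 are lipase-like proteins that work as pairs in Arabidopsis. EDS1 with PAD4 acts through helper NLRs of the ADR1 family in basal immunity and salicylic acid signalling, and EDS1 with SAG101 acts through helper NLRs of the NRG1 family in cell death set off by TIR-type sensor NLRs. NLRs are intracellular immune receptors, and helper NLRs carry an RPW8-like N-terminal domain and relay the signal of sensor NLRs that recognise pathogen effectors. EDS1B is a second copy of EDS1 in the accession Col-0.

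In the RefSeq annotation of TAIR10.1, which was also used for symbols, EDS1 (AT3G48090) is at chr3:17755329-17758147 and EDS1B (AT3G48080) is at chr3:17752463-17755190, both on the minus strand, with 138 bases between them. NRG1.2 (AT5G66910) is at chr5:26718130-26721377 and NRG1.1 (AT5G66900) is at chr5:26714723-26717958, also both on the minus strand, with 171 bases between them. PAD4 (AT3G52430) is at chr3:19431095-19434450, SAG101 (AT5G14930) at chr5:4828499-4830982, ADR1 (AT1G33560) at chr1:12168768-12172119 and ADR1-L2 (AT5G04720) at chr5:1360589-1363907, these 4 on the plus strand. ADR1-L1 (AT4G33300) is at chr4:16050456-16056526 on the minus strand. The annotation has no symbol for AT3G48080, AT5G66900 and AT5G66910, and the names EDS1B, NRG1.1 and NRG1.2 are those of the gene list. The coding sequences of EDS1 and EDS1B were 83.97% identical over aligned bases and those of NRG1.1 and NRG1.2 83.85%, against 75.5% for ADR1 and ADR1-L2, the closest pair in the ADR1 family. Of the stretches of 50 bases in the transcripts, 0.98% of those of EDS1 also occurred in EDS1B and 2.68% of those of NRG1.1 in NRG1.2, so a small share of reads could be counted for the neighbour. Of those of ADR1-L1, 3.56% occurred elsewhere in the nuclear genome, outside all members, as did 0.28% of those of PAD4.

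The neighbouring pairs are shown by the bases just upstream of each annotated gene start, so that the bases can be set beside the different fold changes of the copies after flg22. The window is 250 bases, or all bases up to the next gene where that is nearer. Capitals mark the W-box core TTGAC, the motif that WRKY proteins bind, on either strand (GTCAA when it lies on the other strand). All 4 are written 5′ to 3′ on the minus strand, from TAIR10.1: chr3:17758148-17758397 for EDS1, chr3:17755191-17755328 for EDS1B, chr5:26717959-26718129 for NRG1.1 and chr5:26721378-26721627 for NRG1.2.
EDS1: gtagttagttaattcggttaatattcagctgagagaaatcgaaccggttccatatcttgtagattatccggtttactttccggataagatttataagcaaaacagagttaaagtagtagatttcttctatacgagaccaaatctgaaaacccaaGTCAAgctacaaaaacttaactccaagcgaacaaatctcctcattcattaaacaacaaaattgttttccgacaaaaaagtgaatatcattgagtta
EDS1B: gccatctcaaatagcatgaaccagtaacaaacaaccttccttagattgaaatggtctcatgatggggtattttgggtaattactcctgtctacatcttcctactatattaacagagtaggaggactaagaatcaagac
NRG1.1: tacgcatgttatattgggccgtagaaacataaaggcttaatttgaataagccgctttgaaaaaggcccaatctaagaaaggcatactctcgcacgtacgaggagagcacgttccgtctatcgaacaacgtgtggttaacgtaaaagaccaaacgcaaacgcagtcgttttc
NRG1.2: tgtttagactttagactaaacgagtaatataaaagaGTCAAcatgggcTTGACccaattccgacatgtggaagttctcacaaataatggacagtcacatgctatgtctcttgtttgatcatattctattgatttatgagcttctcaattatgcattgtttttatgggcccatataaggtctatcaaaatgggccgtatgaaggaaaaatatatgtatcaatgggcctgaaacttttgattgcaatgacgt
EDS1 had 1 core, NRG1.2 had 2, and no match was found in the windows of EDS1B, NRG1.1, PAD4, SAG101, ADR1, ADR1-L1 or ADR1-L2. Of the first 250 bases upstream of 27443 protein-coding genes, 44.93% held at least 1 TTGAC on either strand, and 14.11% held 2 or more. At least 1 was held by 34.19% of windows of 171 bases, the length for NRG1.1, by 28.64% of windows of 138 bases, the length for EDS1B, and by 24.1% of windows of 114 bases, the length for SAG101. The other motif searched was CGCG on both strands, which overlaps no TTGAC and is bound by calmodulin-binding CAMTA factors. It occurred once in the window of ADR1-L2, in no other member, and in 10.14% of windows of 250 bases.

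Total counts per library ran from 17287229 to 38709715. The mutated genes were checked first. WRKY18 averaged 52.3 ± 2.86, 312 ± 7.41 and 28.1 ± 3.21 CPM in wrky18 wrky40, wrky40 and wrky18 at 1 h, against 125 ± 10.3 CPM in WT, and WRKY40 averaged 39.7 ± 5.23, 37.1 ± 4.76 and 364 ± 24.7 CPM in the same mutants at 2 h, against 346 ± 18.3 CPM in WT (SD, n = 3 each). Each gene was thus lowest in the mutants named for it. Summed over 3 shoot genes (RBCS1A, CAB2, LHCB2.2) the libraries held 10024 to 22831 CPM, over 4 root genes (EXPA7, SHV2, CASP1, IRT1) 19.9 to 50.9 CPM, and over the seed storage gene CRU3 and the floral gene AP1 0 to 3.24 CPM. These markers moved with the treatment. In WT the shoot genes summed to 16115 to 20632 CPM at 1 h and 13950 to 15855 CPM at 2 h, against 20216 to 22423 CPM at 0 h, and the root genes to 35.6 to 42.8 CPM and 35.0 to 44.1 CPM, against 23.8 to 32.2 CPM. Of the 6 markers tested, 1 was called higher and 3 lower in WT at 1 h, and 2 higher and 4 lower at 2 h. The root genes did not move together: in WT at 2 h EXPA7 rose (1.06 ± 0.19) and SHV2 fell (-0.88 ± 0.19). Their part in the changes below was not tested. In whole seedlings, a change in the number of cells of a type and a change in RNA per cell cannot be told apart. Reads of mitochondrial genes made up 0.0131% to 0.0193% of counts in 11 of the 12 libraries of replicate 3, and 0.0444% to 0.155% in replicates 1 and 2. WT 1 h replicate 3 stood apart from the other libraries of replicate 3, at 0.134%, and without it the same number of members, 8, was called in WT 1 h against 0 h. Genes that respond to touch moved with the treatment: TCH2, TCH3 and TCH4 together had 2699 to 2926 CPM in WT at 1 h and 1613 to 1835 CPM at 2 h, against 196 to 292 CPM at 0 h. The morning clock genes CCA1 and LHY together had 117 to 149 CPM in WT at 1 h and 83.6 to 88.8 CPM at 2 h, against 288 to 356 CPM at 0 h. The part of handling and time of day in the changes below was not tested.

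Levels of different genes can be compared only per length, here as RPKM, the TMM-scaled CPM per kilobase of annotated exons. In untreated WT, ADR1-L1 (14.1 ± 1.74 RPKM, SD, n = 3) and ADR1-L2 (13.6 ± 2.63) were the 2 highest and differed by less than their spread. ADR1 followed at 7.92 ± 1.28 RPKM, then SAG101 at 6.41 ± 0.954, EDS1 at 5.96 ± 0.350 and NRG1.1 at 5.87 ± 0.889. The libraries of ADR1 overlapped those of SAG101, and those of SAG101, EDS1 and NRG1.1 overlapped each other. NRG1.2 at 2.67 ± 0.489 and PAD4 at 2.57 ± 0.438 RPKM also overlapped, and EDS1B was lowest at 0.714 ± 0.120. At 1 h the order in WT was SAG101 (61.3 ± 0.945 RPKM), ADR1-L1 (50.5 ± 2.03), NRG1.1 (45.3 ± 3.53), EDS1 (44.9 ± 0.763), ADR1-L2 (30.5 ± 0.178), PAD4 (24.1 ± 2.03), ADR1 (14.7 ± 0.843), NRG1.2 (2.71 ± 0.326) and EDS1B (1.90 ± 0.162). NRG1.1 and EDS1 overlapped at 1 h. At 2 h SAG101 (40.4 ± 3.55 RPKM) and ADR1-L1 (34.5 ± 3.24) still led, with EDS1 at 20.4 ± 2.80, ADR1-L2 at 16.2 ± 0.895, NRG1.1 at 15.6 ± 0.422, PAD4 at 9.81 ± 1.95, ADR1 at 6.91 ± 0.131, NRG1.2 at 2.53 ± 0.260 and EDS1B at 1.97 ± 0.482 RPKM. The libraries of SAG101 and ADR1-L1, of ADR1-L2 and NRG1.1, and of NRG1.2 and EDS1B overlapped at 2 h. Per coding length instead of exon length, ADR1-L1 came before SAG101 in WT at 1 h, at 85.9 and 83.6 RPKM, and at 2 h, at 58.7 and 55.1. EDS1 then came before NRG1.1 at 1 h, at 61.3 and 52.0 RPKM, and PAD4 before NRG1.2 at 0 h, at 3.57 and 3.17. In untreated WT, ADR1-L1 had 24.0 RPKM per coding length, against 15.9 for ADR1-L2, so their closeness above depends on the length used.

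All values below are CPM scaled by TMM, and changes are log2 fold changes ± SE from 1 edgeR quasi-likelihood fit of all 36 libraries, called at a Benjamini-Hochberg adjusted p below 0.05. TMM scaling matters here: without it every gene in WT would shift by -0.27 at 1 h and -0.28 at 2 h against 0 h, and the changes below are relative to the TMM scale. In WT, 8 of the 9 genes rose at 1 h, where 28.8% of all genes tested rose, and 7 rose at 2 h, where 36.7% did. The median change of the 9 was 1.84 at 1 h and 1.41 at 2 h, against medians of -0.05 and -0.01 over all genes tested. SAG101, PAD4, NRG1.1 and EDS1 rose the most at 1 h, and NRG1.2 was the member that did not pass the test at either time.

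**Figure D1:**
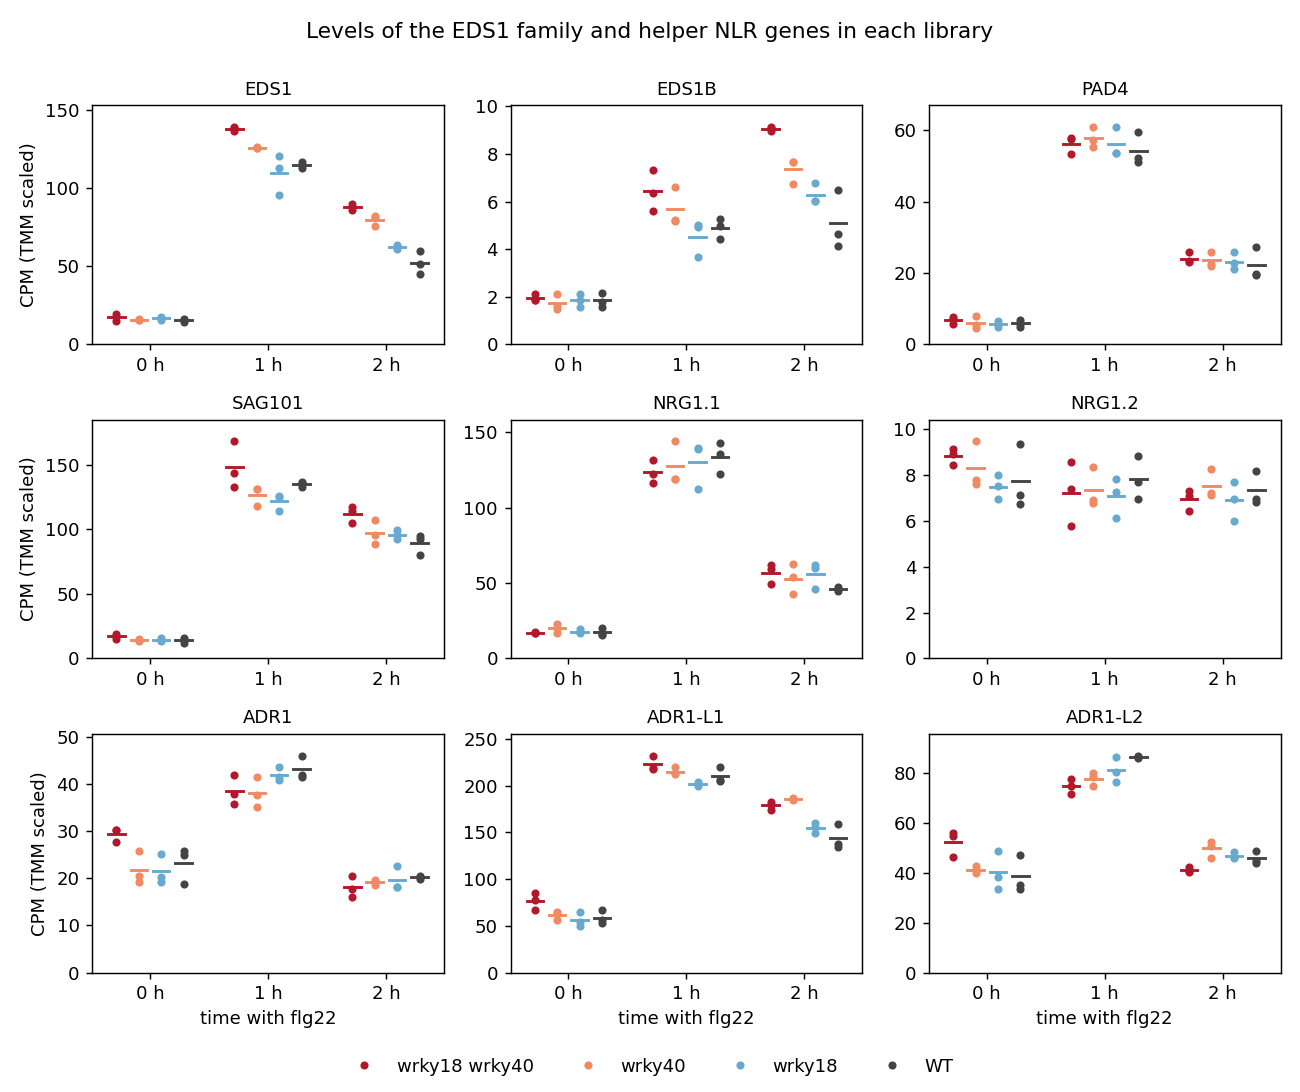
TMM-scaled CPM (y axis, a separate scale for each gene) of the 9 genes at 0, 1 and 2 h (x axis); each point is 1 library and each bar the mean of 3, with wrky18 wrky40, wrky40, wrky18 and WT from left to right at each time. PAD4, SAG101, NRG1.1, ADR1-L1 and EDS1 peaked at 1 h in all 4 genotypes, NRG1.2 stayed between 5.76 and 9.48 CPM in all 36 libraries, and ADR1 was highest at 1 h in every genotype and under its 0 h mean at 2 h.

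EDS1, the shared partner of the lipase-like pairs, had 116, 113 and 115 CPM in WT seedlings at 1 h and 45.3, 59.5 and 51.3 CPM at 2 h, against 14.3, 15.3 and 16.1 CPM at 0 h. The 3 times did not overlap. The change was 2.91 ± 0.09 at 1 h (adjusted p = 1.39e-23) and 1.77 ± 0.09 at 2 h (adjusted p = 3.81e-18). PAD4, which stabilises and is stabilised by EDS1, had 51.0, 59.5 and 52.2 CPM at 1 h and 19.8, 27.2 and 19.4 CPM at 2 h, against 6.85, 4.89 and 5.68 CPM at 0 h. All libraries at 1 h lay above all at 2 h, and those above all at 0 h, with changes of 3.23 ± 0.15 at 1 h (adjusted p = 6.54e-19) and 1.94 ± 0.15 at 2 h (adjusted p = 2.76e-13). SAG101, the partner of EDS1 in the NRG1 route, had 136, 133 and 136 CPM at 1 h and 79.9, 94.4 and 92.4 CPM at 2 h, against 14.3, 11.9 and 16.1 CPM at 0 h. Its rise was 3.26 ± 0.10 at 1 h (adjusted p = 2.40e-23) and 2.65 ± 0.10 at 2 h (adjusted p = 3.44e-21). SAG101 kept more of its rise at 2 h than EDS1 and PAD4 did, and the ratio of SAG101 to PAD4 counts within a library averaged 2.50 ± 0.239 at 1 h and 4.09 ± 0.654 at 2 h, against 2.46 ± 0.376 at 0 h (SD, n = 3 each).

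EDS1B had low counts throughout, 41 to 67 per WT library at 0 h. Its levels in WT were 5.26, 4.44 and 4.98 CPM at 1 h and 4.14, 6.49 and 4.62 CPM at 2 h, against 1.56, 1.79 and 2.17 CPM at 0 h. All libraries at 1 h and 2 h were above all at 0 h, and the 1 h and 2 h libraries overlapped. It rose by 1.41 ± 0.17 at 1 h (adjusted p = 2.05e-08) and 1.47 ± 0.17 at 2 h (adjusted p = 4.42e-09). EDS1 had 23.5 ± 1.66 times the counts of EDS1B within a WT library at 1 h and 10.4 ± 1.07 times at 2 h, against 8.37 ± 0.896 times at 0 h. EDS1B overlaps AT3G48070 on the other strand by 503 bases, and whether counting used strand is not given in the sources used here. AT3G48070 averaged 24.7 ± 1.90 CPM in WT at 1 h and 29.5 ± 0.971 CPM at 2 h, against 25.7 ± 1.73 CPM at 0 h, with changes of -0.06 ± 0.08 (adjusted p = 0.577) and 0.20 ± 0.08 (adjusted p = 0.0276).

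Of the 2 neighbouring NRG1 genes, the helpers of the EDS1 and SAG101 route, NRG1.1 rose after flg22 and NRG1.2 did not pass the test in WT. NRG1.1 had 136, 122 and 143 CPM in WT at 1 h and 44.7, 46.3 and 47.1 CPM at 2 h, against 16.4, 15.3 and 20.3 CPM at 0 h. It rose by 2.95 ± 0.14 (adjusted p = 1.13e-18) and 1.41 ± 0.13 (adjusted p = 5.38e-11), and no library at one time reached those at another. NRG1.2 had 6.98, 7.71 and 8.85 CPM at 1 h and 8.20, 6.98 and 6.83 CPM at 2 h, against 6.74, 7.15 and 9.37 CPM at 0 h. All 3 times overlapped, with changes of 0.01 ± 0.14 (adjusted p = 0.957) and -0.09 ± 0.14 (adjusted p = 0.591). Within a WT library the counts of NRG1.1 were 17.2 ± 2.00 times those of NRG1.2 at 1 h and 6.33 ± 0.775 times at 2 h, against 2.25 ± 0.163 times at 0 h (SD, n = 3 each). In the mutants the ratio averaged 17.4 to 18.7 at 1 h, 7.04 to 8.24 at 2 h and 1.92 to 2.42 at 0 h. NRG1.2 is the copy with 2 W-box cores in the window printed above, and NRG1.1 has no core in its 171 bases. Both cores of NRG1.2 lie more than 171 bases upstream of its start. Over the 171 bases nearest the gene, neither copy has a core.

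**Figure D2:**
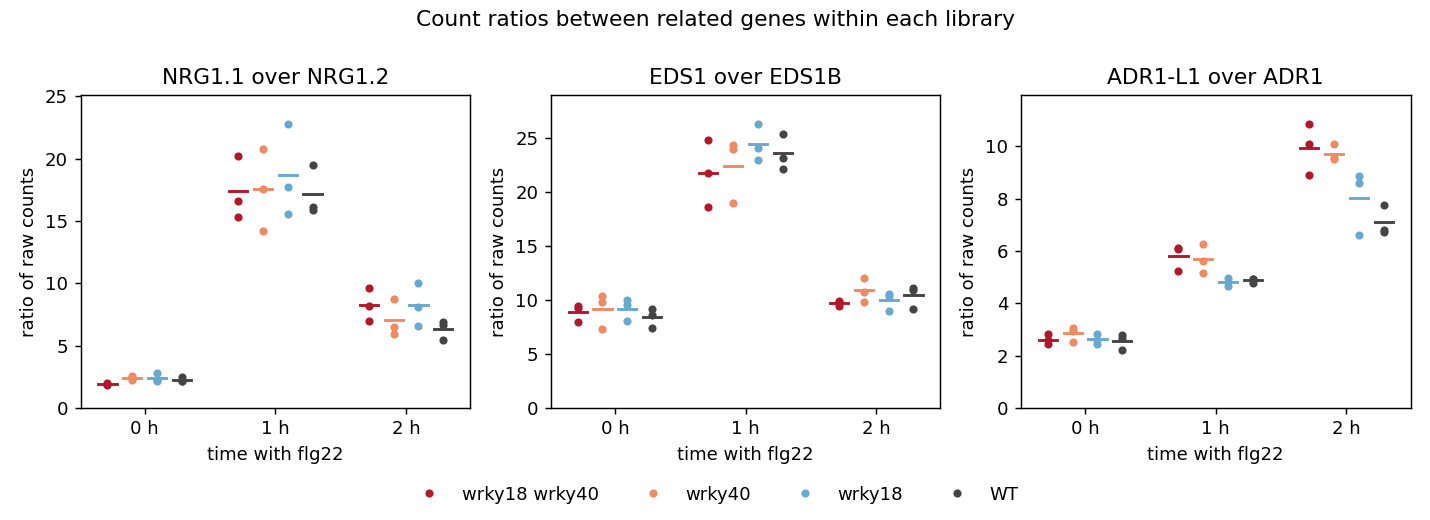
Ratio of raw counts within each library (y axis) for NRG1.1 over NRG1.2, EDS1 over EDS1B and ADR1-L1 over ADR1 at 0, 1 and 2 h (x axis); points are libraries and bars means of 3, with wrky18 wrky40, wrky40, wrky18 and WT from left to right. The first 2 ratios were highest at 1 h in every genotype, and ADR1-L1 over ADR1 was highest at 2 h.

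The 3 ADR1 genes, the helpers of the EDS1 and PAD4 route, had smaller fold changes at 1 h than EDS1 and PAD4. ADR1 had 41.9, 46.0 and 41.6 CPM in WT at 1 h and 20.3, 20.6 and 19.8 CPM at 2 h, against 25.7, 18.9 and 25.0 CPM at 0 h. The 1 h libraries stood above the rest and those at 2 h overlapped 0 h, with changes of 0.90 ± 0.11 (adjusted p = 3.46e-08) and -0.20 ± 0.12 (adjusted p = 0.13). Without replicate 2 of WT 0 h, ADR1 was called lower at 2 h (-0.32, adjusted p = 0.0155). ADR1-L1 had 206, 220.4 and 205 CPM at 1 h and 137, 159 and 135 CPM at 2 h, against 56.6, 52.8 and 66.8 CPM at 0 h. It rose by 1.84 ± 0.09 (adjusted p = 3.97e-18) and 1.29 ± 0.09 (adjusted p = 2.31e-14), with no overlap between times. ADR1-L2 had 87.1, 86.1 and 86.5 CPM at 1 h and 44.9, 48.7 and 43.9 CPM at 2 h, against 35.1, 33.7 and 47.3 CPM at 0 h. It rose by 1.16 ± 0.10 at 1 h (adjusted p = 1.61e-11). At 2 h the groups overlapped, and the change of 0.24 ± 0.10 (adjusted p = 0.0347) was lost without replicate 1 or 2 of WT 0 h or replicate 2 of WT 2 h (0.18, 0.15 and 0.20) and was 0.42 without replicate 3 of WT 0 h. It was also lost when only the groups compared were fitted (adjusted p = 0.105), and the ratio of mean CPM without TMM scaling was -0.04. Counts of ADR1-L1 were 4.88 ± 0.0815 times those of ADR1 at 1 h and 7.10 ± 0.560 times at 2 h, against 2.56 ± 0.314 times at 0 h in WT. ADR1-L1 overlaps AT4G33290, AT4G33310 and AT4G08785 on the other strand, by 410, 261 and 1944 bases. AT4G33290 had 1 count and AT4G33310 had 185 counts in all 36 libraries together, and AT4G08785 was not used here.

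Most members also rose in the mutants. At 1 h, 8 of 9 members rose in wrky18 wrky40, in wrky40 and in wrky18, where 30.1%, 29.9% and 28.3% of all genes tested rose, and the member that was not called was NRG1.2 in each. PAD4 rose by 3.05 ± 0.15, 3.25 ± 0.15 and 3.30 ± 0.15 in wrky18 wrky40, wrky40 and wrky18, and SAG101 by 3.12 ± 0.10, 3.16 ± 0.10 and 3.08 ± 0.10. The levels at 1 h were close between genotypes for PAD4, which had 53.3, 57.8 and 57.5 CPM in wrky18 wrky40, 60.8, 57.3 and 55.4 CPM in wrky40 and 53.6, 60.9 and 53.7 CPM in wrky18, against 51.0, 59.5 and 52.2 CPM in WT. NRG1.1 had 122, 116 and 131 CPM in wrky18 wrky40, 144, 119 and 119 CPM in wrky40 and 112, 139.9 and 139 CPM in wrky18, against 136, 122 and 143 CPM in WT. In both genes the libraries of the 4 genotypes overlapped. SAG101 had 143, 133 and 168 CPM in wrky18 wrky40, 131, 118 and 131 CPM in wrky40 and 114, 125 and 125 CPM in wrky18, against 136, 133 and 136 CPM in WT. All libraries of wrky40 and wrky18 were below those of WT, and neither difference passed the test (-0.09 ± 0.09, adjusted p = 0.722, and -0.15 ± 0.09, adjusted p = 0.553). The smallest rises were those of ADR1 (0.39 ± 0.11, adjusted p = 0.00298) and ADR1-L2 (0.51 ± 0.10, adjusted p = 5.52e-05) in wrky18 wrky40. Their log2 ratios of mean CPM without TMM scaling were 0.07 and 0.19, so the size of both rises depends on the scaling. With the replicate number as a block, NRG1.2 was called lower in wrky18 wrky40 at 1 h (-0.29, adjusted p = 0.0245), as it was without replicate 3 of the 1 h group (-0.40, adjusted p = 0.0199).

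At 2 h, 6 members rose and 3 fell in wrky18 wrky40, where 36.3% of all genes rose and 36.2% fell. In wrky40 7 rose, where 37.2% of all genes did, and in wrky18 6 rose, where 36.8% did. EDS1 rose by 2.34 ± 0.09, 2.35 ± 0.09 and 1.89 ± 0.09 in wrky18 wrky40, wrky40 and wrky18, EDS1B by 2.22 ± 0.17, 2.05 ± 0.17 and 1.78 ± 0.17, and SAG101 by 2.72 ± 0.10, 2.78 ± 0.10 and 2.74 ± 0.10.
The 3 that fell in wrky18 wrky40 were helper NLR genes, while the other helpers, NRG1.1 and ADR1-L1, rose. As a share of the 9 members, these 3 were near the 36.2% of all genes that fell. ADR1 had 16.0, 20.5 and 17.8 CPM at 2 h, against 27.6, 30.3 and 30.2 CPM at 0 h (-0.69 ± 0.12, adjusted p = 3.71e-06). ADR1-L2 had 40.2, 42.2 and 40.7 CPM, against 46.2, 56.2 and 54.6 CPM (-0.35 ± 0.10, adjusted p = 0.00322). NRG1.2 had 7.08, 6.46 and 7.31 CPM, against 8.45, 8.91 and 9.14 CPM (-0.34 ± 0.14, adjusted p = 0.0285). None of the 3 overlapped between the times, and the call of NRG1.2 was lost without replicate 2 or 3 of the 0 h group or replicate 2 of the 2 h group.
In wrky40, ADR1-L2 was called higher (0.27 ± 0.10, adjusted p = 0.0179), and its ratio of mean CPM without TMM scaling was -0.02; the call was lost without replicate 1 of wrky40 0 h (0.25) or replicate 2 of wrky40 2 h (0.24). Without replicate 2 of wrky40 0 h, ADR1 was called lower in wrky40 (-0.28, adjusted p = 0.0475). In wrky18, ADR1-L2 did not pass the test (0.22 ± 0.10, adjusted p = 0.0586), except with the replicate block (0.22, adjusted p = 0.0293) or without replicate 3 of wrky18 0 h (0.38, adjusted p = 0.00134).

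**Figure D3:**
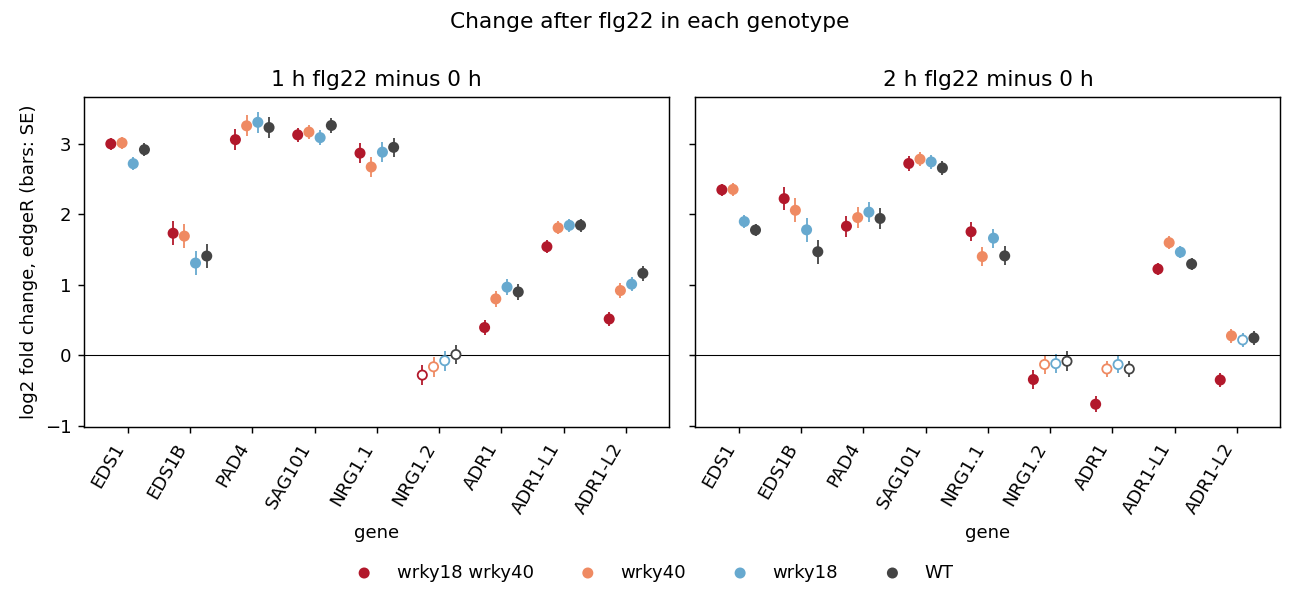
Log2 fold change ± SE from the edgeR fit (y axis) at 1 h and at 2 h against 0 h for the 9 genes (x axis), in wrky18 wrky40, wrky40, wrky18 and WT from left to right; filled points passed the test. The rises of PAD4, SAG101 and NRG1.1 were within 0.35 of WT in every mutant, the rise of EDS1 at 2 h was larger in wrky18 wrky40 and wrky40 than in WT, and ADR1 and ADR1-L2 were lowest in wrky18 wrky40.

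Between 1 h and 2 h most members fell, in WT 7 of 9, where 23.9% of all genes tested fell. In the mutants 7 fell and 1 rose, where 23.0%, 24.9% and 25.8% of all genes fell and 24.8%, 27.1% and 28.7% rose in wrky18 wrky40, wrky40 and wrky18. The gene that rose was EDS1B, by 0.49 ± 0.15, 0.37 ± 0.15 and 0.47 ± 0.16 in the 3 mutants, with 0.06 ± 0.16 in WT (adjusted p = 0.774). Its call in wrky40 (adjusted p = 0.0468) was lost with median-of-ratios scaling, without the filter on low counts, in DESeq2, when only the groups compared were fitted, and without replicate 1 of either group, replicate 2 of 1 h or replicate 3 of 2 h. Its call in wrky18 was lost without replicate 1 of either group (0.32 and 0.41). ADR1-L1 changed in wrky40 by -0.21 ± 0.09 (adjusted p = 0.0433), which was lost without any 1 of the 6 libraries. PAD4 changed by -1.23 ± 0.13 in wrky18 wrky40, -1.30 ± 0.13 in wrky40, -1.27 ± 0.13 in wrky18 and -1.29 ± 0.13 in WT. EDS1 changed by -0.65 ± 0.08, -0.66 ± 0.08 and -0.82 ± 0.08 in the mutants in the same order, and by -1.14 ± 0.08 in WT.

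The mutants were then set against WT at the same time; these comparisons share the WT libraries. In wrky18 no member was called at 0, 1 or 2 h by edgeR or DESeq2, where edgeR called 0.0234%, 0.117% and 0.103% of all genes, and 2 of the 27 values had an unadjusted p below 0.05, those of EDS1 and NRG1.1 at 2 h. EDS1 had 60.9, 63.5 and 62.1 CPM in wrky18, against 45.3, 59.5 and 51.3 CPM in WT (0.26 ± 0.08, adjusted p = 0.331), without overlap, and NRG1.1 differed by 0.28 ± 0.13 (adjusted p = 0.551). In wrky40 no member was called at 0 h or 1 h by either tool, where edgeR called 0.332% and 2.23% of all genes, and no member had an unadjusted p below 0.05 at those times. At 2 h, 3 of 9 were called higher in wrky40, where 2.74% of all genes were. Of the 6 markers tested, 3, all shoot genes, were called lower there: they summed to 10024 to 12689 CPM in wrky40, against 13950 to 15855 CPM in WT, and the part of this in the differences in wrky40 was not tested. In wrky18 wrky40 at 2 h the shoot genes summed to 12919 to 14862 CPM, which overlapped WT, and the part of cell types in its differences was not tested either. In wrky18 wrky40, 2 were called higher at 0 h, 1 at 1 h and 4 at 2 h, where 1.84%, 3.99% and 7.23% of all genes were. No member was called lower than WT in any mutant at any time, where 6.96% of all genes were lower in wrky18 wrky40 at 2 h; in the fit of only the groups compared, ADR1-L2 was called lower in wrky18 wrky40 at 1 h (-0.22, adjusted p = 0.0436).

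EDS1 and EDS1B were the members with the largest differences, both at 2 h. EDS1 had 85.9, 89.6 and 87.9 CPM in wrky18 wrky40 and 75.5, 81.2 and 82.2 CPM in wrky40, against 45.3, 59.5 and 51.3 CPM in WT. All mutant libraries were above all WT libraries, by 0.75 ± 0.08 in wrky18 wrky40 (adjusted p = 7.24e-08) and 0.61 ± 0.08 in wrky40 (adjusted p = 1.14e-05), and both calls held in every alternative tried. EDS1B had 9.13, 9.09 and 8.96 CPM in wrky18 wrky40 and 7.68, 6.75 and 7.68 CPM in wrky40, against 4.14, 6.49 and 4.62 CPM in WT. These groups did not overlap either, with 0.82 ± 0.15 in wrky18 wrky40 (adjusted p = 2.57e-04) and 0.52 ± 0.15 in wrky40 (adjusted p = 0.0453). The call in wrky18 wrky40 held in every alternative, and that in wrky40 was lost without replicate 1 or 3 of WT, without any 1 of the wrky40 libraries and in the fit of only the groups compared. Its overlapping neighbour AT3G48070 differed by -0.01 ± 0.08 between wrky18 wrky40 and WT at 2 h (adjusted p = 0.978). At 1 h EDS1 had 138, 139 and 136 CPM in wrky18 wrky40, against 116, 113 and 115 CPM in WT (0.27 ± 0.08, adjusted p = 0.0458). The groups did not overlap, yet the call was lost without any 1 of the 6 libraries, with median-of-ratios scaling and without the filter.

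SAG101 had 117, 105 and 114 CPM in wrky18 wrky40 at 2 h, against 79.9, 94.4 and 92.4 CPM in WT (0.33 ± 0.09, adjusted p = 0.0142), without overlap. The call was lost without replicate 1 of either group. PAD4 did not pass the test in any mutant at any time, with 23.0, 25.9 and 23.2 CPM in wrky18 wrky40 at 2 h, against 19.8, 27.2 and 19.4 CPM in WT (0.11 ± 0.13, adjusted p = 0.645). NRG1.1 had 49.1, 62.2 and 59.7 CPM in wrky18 wrky40 at 2 h, against 44.7, 46.3 and 47.1 CPM in WT, and its difference of 0.31 ± 0.13 did not pass the test (adjusted p = 0.111), except in the fit of only the groups compared (adjusted p = 0.024). NRG1.2 differed from WT by -0.14 to 0.18 in the 9 comparisons.

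ADR1-L1 was higher at 2 h in wrky40 and wrky18 wrky40. It had 174, 183 and 179.7 CPM in wrky18 wrky40 and 186, 187 and 185 CPM in wrky40, against 137, 159 and 135 CPM in WT. The differences were 0.32 ± 0.09 (adjusted p = 0.0135) and 0.37 ± 0.09 (adjusted p = 0.0103). Each was lost without WT replicate 1 or 3, and that of wrky18 wrky40 also without its replicate 2. In untreated seedlings, ADR1-L1 had 67.5, 78.1 and 84.8 CPM in wrky18 wrky40, against 56.6, 52.8 and 66.8 CPM in WT (0.39 ± 0.09, adjusted p = 0.0121), and the groups did not overlap. ADR1-L2 had 46.2, 56.2 and 54.6 CPM in wrky18 wrky40 at 0 h, against 35.1, 33.7 and 47.3 CPM in WT (0.44 ± 0.10, adjusted p = 0.0152), and replicate 3 of WT lay within the mutant range. ADR1 had 27.6, 30.3 and 30.2 CPM, against 25.7, 18.9 and 25.0 CPM, without overlap and without passing the test (0.34 ± 0.11, adjusted p = 0.115). Both calls at 0 h were lost without replicate 1 or 2 of WT or replicate 2 or 3 of wrky18 wrky40, and when only the groups compared were fitted. Summed levels of touch and clock genes also stood apart in these untreated seedlings: TCH2, TCH3 and TCH4 together had 333 to 382 CPM in wrky18 wrky40, against 196 to 292 CPM in WT, and CCA1 and LHY together had 219 to 240 CPM, against 288 to 356 CPM. Singly, 1 of the 3 touch genes was called higher and 2 of 5 clock genes lower, where 393 of 21356 genes were higher and 154 lower. The part of touch and clock genes in the ADR1-L1 and ADR1-L2 differences was not tested.

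**Figure D4:**
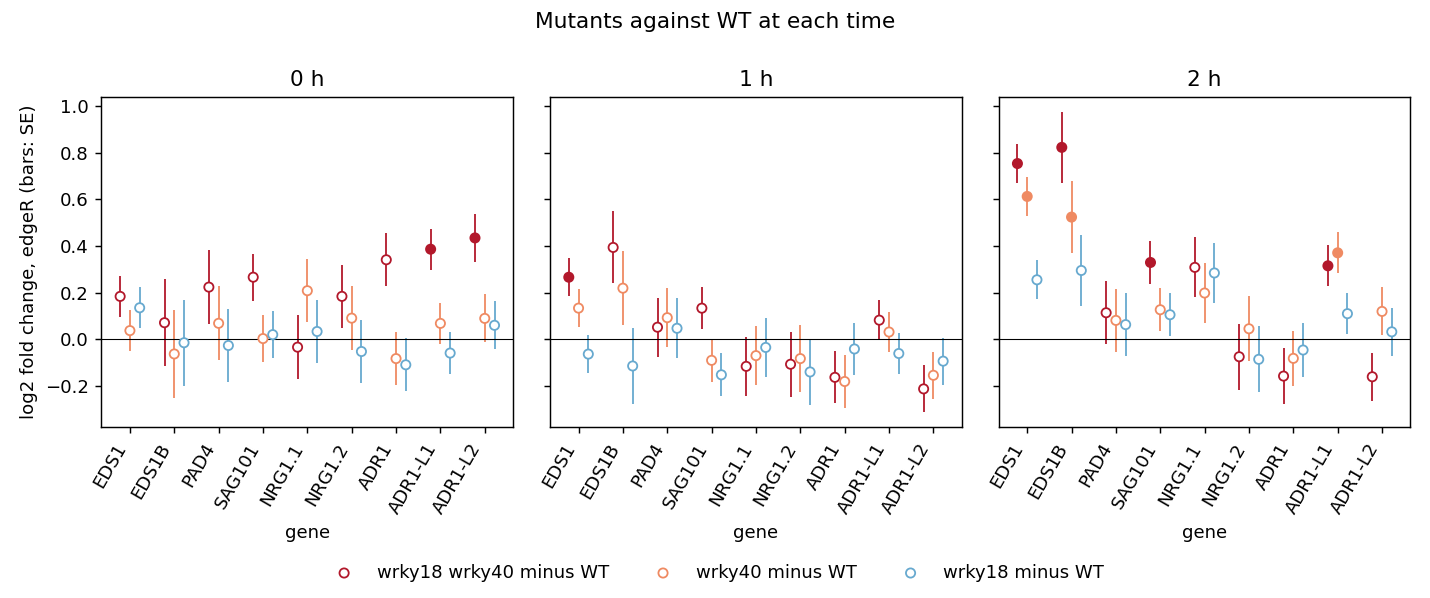
Log2 fold change ± SE of each mutant against WT (y axis) at 0, 1 and 2 h for the 9 genes (x axis), with wrky18 wrky40, wrky40 and wrky18 from left to right; filled points passed the test. EDS1 and EDS1B had the largest differences, 0.75 and 0.82 in wrky18 wrky40 at 2 h, and no filled point lies below 0.

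Whether the change after flg22 differed between a mutant and WT was tested directly, as an interaction. EDS1 rose more by 2 h in wrky18 wrky40 than in WT, by 0.57 ± 0.12 (adjusted p = 0.00688), and more in wrky40 than in WT, by 0.58 ± 0.12 (adjusted p = 0.0336). ADR1-L2 had 71.5, 77.6 and 75.1 CPM in wrky18 wrky40 at 1 h, against 87.1, 86.1 and 86.5 CPM in WT, and 40.2, 42.2 and 40.7 CPM at 2 h, against 44.9, 48.7 and 43.9 CPM in WT. The mutant libraries thus lay below all WT libraries after flg22, while at 0 h their mean was above that of WT. The change of ADR1-L2 was lower in wrky18 wrky40 than in WT, by -0.65 ± 0.14 at 1 h (adjusted p = 0.0221) and -0.60 ± 0.15 at 2 h (adjusted p = 0.0223). Touch genes moved in the same comparisons: of TCH2, TCH3 and TCH4, 2 were called lower in wrky18 wrky40 than in WT at 1 h (median -0.85) and 1 at 2 h (median -0.97), and their part in the ADR1-L2 values was not tested. The called interactions of the 9 genes were 1 of 9 in wrky18 wrky40 at 1 h, 2 of 9 at 2 h and 1 of 9 in wrky40 at 2 h, where 0.824%, 1.95% and 0.215% of all genes were called. All 4 were lost when only the groups compared were fitted. EDS1 in wrky18 wrky40 held without any 1 library. EDS1 in wrky40 was lost without replicate 2 or 3 of either 0 h group, replicate 1 or 3 of WT 2 h or replicate 2 or 3 of wrky40 2 h. Both calls of ADR1-L2 were lost without replicate 1 or 2 of WT 0 h, replicate 2 or 3 of wrky18 wrky40 0 h, or replicate 1 of wrky18 wrky40 at the time tested, and that at 2 h also without replicate 2 of WT 2 h. EDS1B had 0.75 ± 0.24 in wrky18 wrky40 at 2 h (adjusted p = 0.106), and ADR1 had -0.50 ± 0.16 at 1 h (adjusted p = 0.152) and -0.50 ± 0.16 at 2 h (adjusted p = 0.119), none past the threshold; without replicate 2 of WT 2 h, EDS1B was called (0.98, adjusted p = 0.0212). In wrky40 at 1 h, and in wrky18 at both times, edgeR and DESeq2 called no member, where edgeR called 0.0937%, 0% and 0% of all genes; the 54 interaction values of the 9 genes held 10 with an unadjusted p below 0.05.

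The double mutant was also compared with the sum of the changes of both single mutants. At none of the 3 times did edgeR or DESeq2 call a member, where edgeR called 0.0375%, 0.0609% and 0.323% of all genes at 0, 1 and 2 h. Of the 27 values, 4 had an unadjusted p below 0.05: ADR1 (0.53 ± 0.16) and ADR1-L1 (0.38 ± 0.13) at 0 h, SAG101 (0.38 ± 0.13) at 1 h and ADR1-L2 (-0.31 ± 0.15) at 2 h. For EDS1 at 2 h the difference from the sum was -0.11 ± 0.12 (adjusted p = 0.757), beside changes of 0.75 in wrky18 wrky40, 0.61 in wrky40 and 0.26 in wrky18.

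The genes around these 9 were followed in lists of pathway neighbours, chosen with earlier results of these data known. The counts below describe the lists, and no list was tested as a set. Of all genes tested, 28.8% rose and 32.0% fell in WT at 1 h, 36.7% rose and 35.1% fell at 2 h, and 7.23% were higher and 6.96% lower in wrky18 wrky40 than in WT at 2 h. The medians over all genes tested in the same comparisons were -0.05, -0.01 and -0.01. Of 13 TIR-type sensor NLRs and TIR proteins tested, which signal through EDS1, 10 rose and 1 fell in WT at 1 h and 12 rose at 2 h, with median changes of 1.2 and 0.76. LAZ5 (3.10 ± 0.10), RPS6 (2.68 ± 0.10) and WRR4 (2.50 ± 0.11) had the smallest adjusted p at 1 h, and LAZ5 (2.2 ± 0.10), RPS4 (2.36 ± 0.12) and RRS1 (2.09 ± 0.11) at 2 h. The gene that fell at 1 h was CSA1 (-0.43 ± 0.11). In wrky18 wrky40 against WT at 2 h, 4 were higher and 1 lower, with a median of 0.18. SNC1 (0.45 ± 0.11) and AT1G17600 (0.92 ± 0.27) were higher and WRR4 was lower (-0.34 ± 0.11); the other 2 that were higher, LAZ5 (0.28 ± 0.09) and RPP5 (0.34 ± 0.12), were named after their values were seen, like CSA1.
Of the relatives of helper NLRs, RPW8-like and truncated genes, all 5 tested rose in WT at 1 h and at 2 h, with medians of 2.93 and 3.05. HR4 rose by 2.93 ± 0.10 at 1 h and 3.25 ± 0.10 at 2 h, DAR5 by 3.49 ± 0.11 and 2.61 ± 0.11, HR3 by 2.68 ± 0.30 at 1 h and HR2 by 3.05 ± 0.26 at 2 h. AT5G66890, the gene next to NRG1.1, had 0 counts in the untreated WT group. Set against a limit of 3 counts for the summed 0 h libraries, it was at least 11.1-fold higher in WT at 1 h; at 2 h the bound was at least 7.45-fold higher. With it at that bound the medians were 2.93 and 3.04. In wrky18 wrky40 against WT at 2 h, HR3 was lower (-1.0 ± 0.24) and the other 4 were not called.

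Downstream of EDS1 and PAD4, 7 of 11 genes of salicylic acid and pipecolic acid signalling rose in WT at 1 h (28.8% of all genes) and 9 at 2 h (36.7%), with medians of 1.41 and 2.15. CBP60G and SARD1, transcription factors that switch on salicylic acid synthesis, rose by 5.85 ± 0.15 and 4.64 ± 0.25 at 1 h, and the salicylic acid receptor gene NPR1 by 2.66 ± 0.11. EDS5, which encodes a plastid exporter of the salicylic acid pathway, rose by 3.11 ± 0.18 at 2 h. In wrky18 wrky40 against WT at 2 h, 7 of the 11 were higher (7.23% of all genes) and 1 lower (6.96%), with a median of 0.60. EDS16, which encodes the isochorismate synthase of salicylic acid synthesis, averaged 115 ± 26.3 CPM in wrky18 wrky40, against 23.7 ± 2.71 CPM in WT (2.28 ± 0.19, adjusted p = 1.95e-10). ALD1, needed for pipecolic acid, averaged 2.40 ± 0.242 CPM, against 0.201 ± 0.0496 CPM (3.56 ± 0.39, adjusted p = 7.35e-08), and CBP60G was the gene that was lower (-0.69 ± 0.11, adjusted p = 5.59e-05).

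Of 11 tested brakes on EDS1, PAD4 or NLR signalling, 7 rose and 1 fell in WT at 1 h and 10 rose at 2 h, with medians of 1.18 and 1.08, where the shares of all genes were 28.8% higher and 32.0% lower at 1 h and 36.7% higher at 2 h. NUDT7 (3.89 ± 0.11), BAP1 (5.28 ± 0.20) and SR1 (2.34 ± 0.11), which encodes the factor CAMTA3, had the smallest adjusted p at 1 h, and SAUL1 rose by 1.82 ± 0.08 at 2 h. The gene that fell at 1 h was CPR1 (-0.53 ± 0.09), named after its value was seen, which encodes an F-box protein that limits NLR levels. In wrky18 wrky40 against WT at 2 h, SR1 was the 1 of 11 called, and it was higher (0.37 ± 0.10), a share near the 7.23% of all genes.
All 7 cell-surface receptor partners of the PAD4 and ADR1 route rose in WT at both times, where 28.8% and 36.7% of all genes rose. Their medians were 2.72 and 3.08, and among them were the kinases SOBIR1 (4.92 ± 0.14 at 1 h) and BAK1 (2.85 ± 0.08) and the flagellin receptor FLS2 (2.72 ± 0.08). Against WT at 2 h, 5 were higher and 1 lower in wrky18 wrky40, where 7.23% of all genes were higher and 6.96% lower. RLP23, a receptor-like protein that senses a peptide of NLP proteins, averaged 71.5 ± 11.7 CPM, against 22.0 ± 5.55 CPM (1.70 ± 0.22), AT4G17660 was higher by 2.39 ± 0.23 and SOBIR1 by 0.64 ± 0.12; the gene that was lower was FLS2 (-0.37 ± 0.08).
NLR chaperone genes were mixed: of 7 in WT, 2 were called higher and 4 lower after 1 h (median -0.68), and 4 higher and 3 lower after 2 h (median 0.59). Of all genes, 28.8% were higher and 32.0% lower after 1 h and 36.7% and 35.1% after 2 h. At 1 h the co-chaperone gene SGT1A rose by 1.64 ± 0.10, and the HSP90 genes HSP81-2 (-1.12 ± 0.09) and HSP81-3 (-1.2 ± 0.11) fell. At 2 h SGT1A (1.93 ± 0.10), SGT1B (0.78 ± 0.05) and PBS2 (0.59 ± 0.09), which encodes RAR1, rose. In wrky18 wrky40 at 2 h, 5 were lower than in WT (6.96% of all genes) and 1 higher (7.23%), with a median of -0.51. Among those lower were HSP81-2 (-0.75 ± 0.09), HSP81-3 (-0.71 ± 0.11) and SGT1A (-0.51 ± 0.09).

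Across the 12 group means of log2 CPM, the 5 genes EDS1, PAD4, SAG101, NRG1.1 and ADR1-L1 correlated with each other with Pearson's r of 0.937 to 0.994 (10 pairs), which describes groups that share the rise after flg22. Within groups, over deviations of the 36 libraries from their group means, r was 0.198 to 0.537 for the same pairs. NRG1.2 had r of -0.708 to 0.0769 with the other 8 members over the 12 group means. Among other genes whose group means averaged 1 log2 CPM or more and spanned 1 log2 unit or more, 8060 for most members, the closest to PAD4 were CPK28 (r = 0.998) and CPK32 (0.998), and the closest to SAG101 were PLDGAMMA1 and NPR1 (both 0.999). EDS1 was closest to AT3G56410 and AT1G14040 (both 0.997), EDS1B to AT1G11300 (0.995) and PNG1 (0.994), NRG1.1 to AT1G74440 and PUT5 (both 0.997) and ADR1-L1 to AT1G24140 (0.997) and TDR1 (0.996). ADR1 was closest to LSH9 (0.981) and AGP10 (0.977), and ADR1-L2 to AT5G51190 (0.987) and AT3G46720 (0.979). Such values were common: 1005 genes had r above 0.95 with EDS1 and 1533 with SAG101. ADR1 had 21 such genes, ADR1-L2 had 30 and NRG1.2 had 0, with AAP7 (0.906) and AT5G03360 (0.882) the closest.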

How the data were processed

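PolyA RNA of 36 Arabidopsis seedling samples was sequenced from TruSeq Stranded libraries, per the labels' protocols. The authors deposited raw read counts per gene; the submitters' processing notes name FastQC 0.11.2, TopHat2 2.0.10, HTSeq and TAIR10, and the strand setting is not given in the sources used here. Counts of 32678 genes were read, 6155 of them with no count, and totals of 17287229 to 38709715 set the precision together with a biological coefficient of variation of 10.7%. Genes passing filterByExpr (21356) were scaled by TMM and fitted with edgeR 4.0.16 (quasi-likelihood, R 4.3.3) over all 12 groups, leaving 24 residual degrees of freedom, for 30 comparisons; p-values were Benjamini-Hochberg adjusted within each comparison. The fit was tested on simulated data.

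The 9 genes and the pathway lists were chosen with earlier results of these data known. List genes are named by rule: up to 3 called genes with the smallest adjusted p in WT at 1 h, in WT at 2 h and in wrky18 wrky40 against WT at 2 h, besides those said to be named after their values were seen. The 2 most alike genes are given per member. Symbols, matched for 65 of the 77 listed genes, and sequences came from RefSeq TAIR10.1 (Biopython 1.88).

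The series' design text makes each biological replicate a set of 12 samples, so the numbers pair samples. Deviations from group means correlated with a median r of 0.13 in 198 same-number pairs (127 above 0.1, lowest -0.03) and -0.07 between numbers, and 35 of 36 libraries correlated best with their own number. The exception was WT 1 h replicate 3, with a mean r of 0.029 to replicate 1 and 0.019 to replicate 3. Without it, 731 genes in place of 1237 were called in wrky18 wrky40 against WT at 1 h. Replicates differed by more than sampling noise, so none was merged. Chi-square over degrees of freedom between replicates ran from 4.32, for WT 1 h replicates 1 and 3, to 32.5. Alternatives were a replicate block, median-of-ratios scaling, no filter, DESeq2 1.42.0, fits of only the groups compared, leaving out each library, and, chosen after seeing the data, coding length and CPM without TMM. Counting floors cover counting error only.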

Additional observations from a re-analysis of the deposited data

Results flagged for a closer look

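These 4 results were picked out because the change after flg22 differed between a mutant and WT by a test of the difference itself, in edgeR's quasi-likelihood fit with Benjamini-Hochberg adjustment. ADR1-L2 rose less in wrky18 wrky40 than in WT at 1 h, by -0.65 on the log2 scale (SE 0.14, adjusted p = 0.0221), and its change at 2 h was also lower, by -0.60 (SE 0.15, adjusted p = 0.0223). EDS1 rose more than in WT at 2 h, by 0.57 in wrky18 wrky40 (SE 0.12, adjusted p = 0.00688) and by 0.58 in wrky40 (SE 0.12, adjusted p = 0.0336). For ADR1-L2 the 0 h libraries of wrky18 wrky40 were also higher than those of WT on average, at 52.4 against 38.7 CPM.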

How the results depend on the processing

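Of 270 changes of the 9 genes, 106 were called by edgeR; 89 kept the call under every alternative fixed at the start, 17 lost it under at least 1, and 16 lost it by leaving out 1 library. None changed sign in a test. The replicate block moved the 2 calls named for NRG1.2 and ADR1-L2 in the report and changed no other call. Called members in wrky18 wrky40 against WT at 1 h numbered 0 with median-of-ratios scaling and with no filter on low counts, and 2 when only the groups compared were fitted. That fit gave 0 in wrky18 wrky40 against WT at 0 h, and 0 interactions in wrky18 wrky40 at 1 h, in wrky18 wrky40 at 2 h and in wrky40 at 2 h; it uses fewer samples. Leaving out 1 library gave 0 to 3 called members in wrky18 wrky40 against WT at 0 h, 0 at 1 h and 2 to 4 at 2 h, and 1 to 3 in wrky40 at 2 h. It gave 0 to 1 interaction in wrky18 wrky40 at 1 h, 1 to 2 at 2 h and 0 to 1 in wrky40 at 2 h, and 0 to 1 departure from additivity at 0 h, which was ADR1 (0.67) without replicate 1 of wrky40 0 h. As a ratio of mean CPM without TMM, 2 of 102 called changes turned negative, ADR1-L2 at 2 h against 0 h in WT (-0.0372) and in wrky40 (-0.0204); every gene then shifts by -0.27 to -0.35 between flg22 and 0 h, and the cause was not tested. Per coding length, 41 of 108 ranks moved. EDS1B, with the fewest counts, is the member whose precision depth limits most.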
